A study of Mus musculus with 6 samples.

Results

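Claudins are the tetraspan membrane proteins that form the strands of epithelial tight junctions. The set described here holds 10 claudin genes, Cldn1, Cldn2, Cldn3, Cldn4, Cldn6, Cldn7, Cldn10, Cldn12, Cldn18 and Cldn23, taken by name from a table of 55487 genes. The table holds 35 genes named Cldn with a number, and all 10 of the set passed the filter on low counts. The libraries came from mouse lungs with KP tumours, digested 11 weeks after the tumours were started and sorted for cells with GFP and without CD45, and bulk RNA was sequenced. The KP tumour background was shared by both groups. The control group received sgNeo and is labelled Lkb1 wild type, and the other received sgLkb1, which targets Lkb1, the kinase gene listed as Stk11, and is labelled Lkb1 mutant. There were 3 libraries per group. The labels do not say whether each library came from its own animal, nor give the animals' age or strain or the promoter that started the tumours, so p-values measure the spread between these libraries, which may be technical.

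Claudins of neighbouring cells bind each other and seal the space between the cells, and the mix of claudins sets which ions and molecules pass. Some members, such as Cldn2 and Cldn10, form ion-selective paracellular pores, while Cldn1, Cldn3 and Cldn18 tighten the barrier. Cldn18 is a defining claudin of the alveolar epithelium and has separate lung and stomach forms with different first exons. Claudin strands are tied to the actin cytoskeleton through scaffold proteins such as ZO-1, encoded by Tjp1.

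Summed expected counts per library were 26007503 to 28986526 in sgNeo and 29613678 to 41729299 in sgLkb1. Values of a group are listed in the order of its replicate numbers. Levels are given as CPM, the usual counts-per-million unit, on library sizes scaled with TMM, and 3 counts in a library corresponded to 0.119 to 0.121 CPM in sgNeo and 0.0734 to 0.0861 CPM in sgLkb1. Stk11, the targeted gene, lay between 33.4 and 82.7 CPM in sgNeo and between 23.5 and 25.6 CPM in sgLkb1 (log2 fold change -1.31 with SE 0.30, adjusted p = 0.023 by edgeR), and the call was kept without sgNeo replicate 2 and lost without any other library (adjusted p up to 0.076). The labelled cells carried epithelial and alveolar type 2 transcripts in every library, with Epcam between 436 and 1340 CPM. Sftpc, surfactant protein C, was between 69500 and 83000 CPM in sgNeo and between 5940 and 11200 CPM in sgLkb1. Of 8 such markers 5 fell (Sftpc, Sftpb, Sftpa1, Lamp3 and Nkx2-1) and 1 rose (Epcam) in sgLkb1, against 8.6% and 7.05% of all tested genes. The 8 summed to 118000 to 139000 CPM in sgNeo and 17700 to 24400 CPM in sgLkb1. Summed leukocyte markers were at most 34.1 CPM in any library.

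The stretch before the Cldn2 start is shown because Cldn2 had the lowest p-value of the set. It comes from RefSeq (GRCm38.p6, chrX:139800558-139800807, plus strand), with a TATA box in capitals, and no annotated Cldn2 exon overlaps it.
Cldn2: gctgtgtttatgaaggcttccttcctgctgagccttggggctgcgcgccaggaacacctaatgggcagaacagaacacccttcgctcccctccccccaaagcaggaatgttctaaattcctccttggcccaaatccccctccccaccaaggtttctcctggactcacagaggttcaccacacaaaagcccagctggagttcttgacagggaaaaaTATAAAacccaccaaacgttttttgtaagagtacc
A further pair of 30-base stretches is shown because they hold the full cyclic AMP response element, TGACGTCA in capitals, the DNA element bound by CREB, whose CRTC coactivators are restrained by the SIK kinases that LKB1 activates. The Cldn6 stretch is chr17:23679314-23679343 and the Cldn7 stretch chr11:69965372-69965401, both on the plus strand, and each overlaps an exon of 1 annotated transcript of its gene. Neither gene passed the test between groups (edgeR adjusted p = 0.061 for Cldn6 and 0.33 for Cldn7). The Cldn2 stretch above does not hold TGACGTCA, and a part of the element in any level was not tested.
Cldn6: aggtggtccagTGACGTCAttgagacttta
Cldn7: tgtcccttcagTGACGTCAggtcactcgac

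RefSeq windows from 250 bases before to 50 after a start were matched for 9 of the 10 genes, 14 windows in all. Cldn23 had no window and was not searched. Both strands of each window were searched for 8 short motifs. A gene is named if any of its windows held the motif, and Cldn7, Cldn10, Cldn12 and Cldn18 had several. The percentages are of single windows, so gene counts and percentages are not in the same unit. No match of one motif overlapped a match of another in the 14 windows, and a match describes letters, not a bound site. The cyclic AMP response element, TGACGTCA, was in windows of 2 genes, Cldn6 and Cldn7, 40 and 38 bases before the start by its first base, and in 1.79% of all 32817 mouse windows. The TATA box, searched as TATAAA, was in the window of Cldn2 and in 13.6% of all windows. The AP-1 motif, searched as TGANTCA, was in the window of Cldn4 and in 7.81% of all windows. The NKX2-1 core, searched as CTCAAG, was in windows of Cldn6 and Cldn10 and in 15.9% of all windows. An E-box of the letters CAGGTG, the kind that Snail factors bind, was in windows of Cldn3, Cldn4, Cldn6 and Cldn7 and in 20.2% of all windows. The GC box, searched as GGGCGG, was in windows of 7 of the genes and in 35.6% of all windows. The CDX motif, searched as TTTATNG and present in 10.9% of all windows, was in none of the 14. Neither was the HNF1 palindrome, which 0.00914% of all windows held.

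Cldn2 and Cldn23 rose in sgLkb1, and none of the 10 fell past the threshold. In this comparison 2501 of 15978 tested genes passed (15.7%), 7.05% of those tested as higher and 8.6% as lower. The higher share of all calls was 45.1%, and 71.0% when libraries were scaled by total counts alone, a scaling that moved the median log2 fold change of all genes from 0.02 to 0.26. The members' median log2 fold change was 0.70, the midpoint between Cldn7 (0.26) and Cldn1 (1.13), neither of which passed. On the TMM scale the 2 groups did not overlap for 3 of the 10 genes (Cldn2, Cldn3 and Cldn23), against 36.5% of all tested genes. In these sorted bulk samples, fewer cells that express a claudin and less of its RNA per cell cannot be told apart.

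Cldn2, the pore-forming claudin that lets cations and water through, lies on chromosome X from 139800828 to 139811386 on the plus strand (GRCm38). It was at 69.5, 82.8 and 101 CPM in sgNeo and at 421, 401 and 280 CPM in sgLkb1. Every sgLkb1 library was above every sgNeo library. Averaged, this was 84.6 ± 16 and 367 ± 75.9 CPM (SD, n = 3), 4.34-fold apart (log2 fold change 2.12 with SE 0.22, adjusted p = 0.0011 by edgeR). It passed in all 14 other fits, among them 6 that left out a library, with log2 fold changes between 1.99 and 2.34.

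Cldn23, a claudin of differentiated intestinal surface epithelium, has a single exon on chromosome 8 from 35824712 to 35826559 on the minus strand. Its level was 16.8, 18.3 and 11.9 CPM in sgNeo and 43.7, 43.4 and 37.0 CPM in sgLkb1, again without overlap. Means were 15.7 ± 3.36 and 41.4 ± 3.79 CPM (SD, n = 3), a 2.64-fold difference (log2 fold change 1.40 with SE 0.20, adjusted p = 0.0036 by edgeR). This call also held in all 14 other fits (log2 fold changes 1.23 to 1.64).

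**Figure D1:**
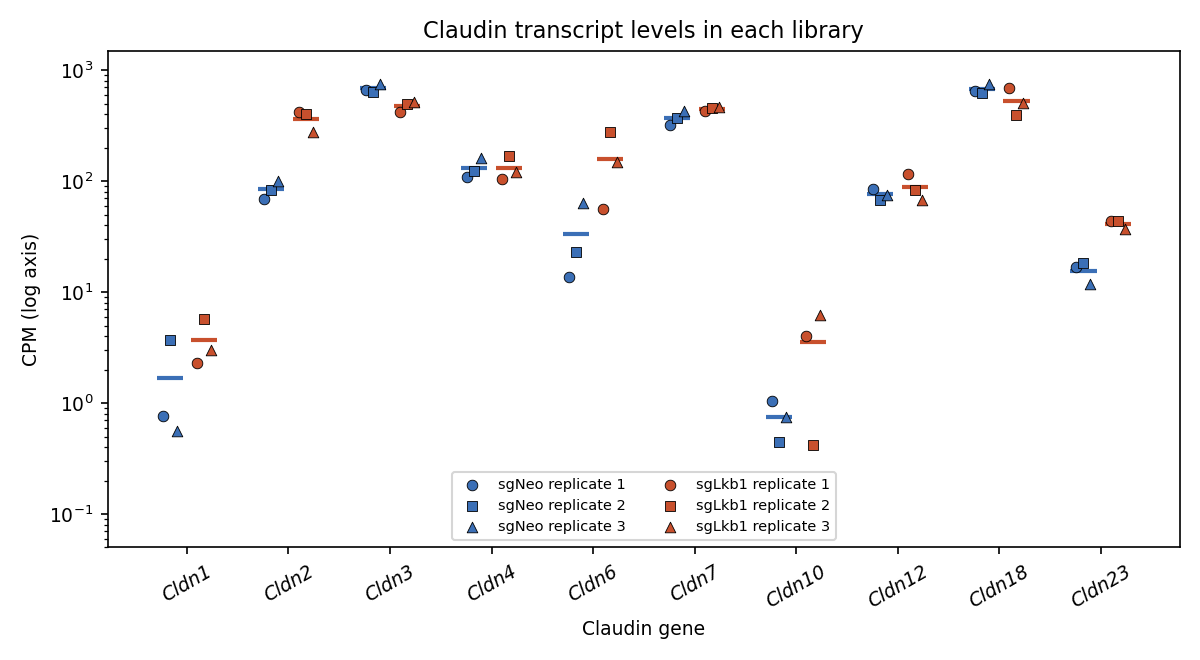
CPM of each claudin gene on a log axis, with 1 point per library, sgNeo in blue and sgLkb1 in orange, marker shape for the replicate number and a bar at the group mean (n = 3). Cldn2 and Cldn23 are separated between groups, and Cldn3 is separated in the other direction. Cldn6 spreads widely in each group, Cldn1 is the most spread in sgNeo and Cldn10 the most spread in sgLkb1.

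Cldn6, a claudin of embryonic epithelium that most adult tissues lack, differed by as much as Cldn2 on average but varied far more. It was at 13.6, 23.2 and 64.1 CPM in sgNeo and at 55.7, 275 and 148 CPM in sgLkb1. The highest sgNeo library lay above the lowest sgLkb1 library, and within each group the highest library exceeded the lowest by 4.72 and 4.93 times. The means were 33.6 ± 26.8 and 159 ± 110 CPM (SD, n = 3; log2 fold change 2.24, SE 0.68), and the gene did not pass (edgeR adjusted p = 0.061). It passed in 5 of 14 other fits: without sgNeo replicate 3 (log2 fold change 3.11, edgeR adjusted p = 0.034), without sgLkb1 replicate 1 (2.64, adjusted p = 0.026), with no filter, with total-count scaling and with the replicate number as a block (adjusted p = 0.014). The lowest of the log2 fold changes, 1.64, came from leaving out sgLkb1 replicate 2.

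Cldn9 lies next to Cldn6 on chromosome 17 on the opposite strand, with 137 bases between their annotated ends. It is not one of the 10 and was far lower, at 0.281, 0.121 and 0.199 CPM in sgNeo and 2.86, 1.89 and 0.803 CPM in sgLkb1, which are 3 to 7 and 28 to 117 counts. It rose (log2 fold change 3.18 with SE 0.69, adjusted p = 0.018 by edgeR), a call that held without sgLkb1 replicate 1 or 3 and was lost without any 1 sgNeo library or without sgLkb1 replicate 2 (edgeR adjusted p up to 0.083), and with limma-voom (log2 fold change 3.00, adjusted p = 0.07). Among sgLkb1 libraries Cldn9 was highest in replicate 1, where Cldn6 was lowest.

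Cldn10, whose forms make cation or anion pores and which marks club cells in the airway, was low throughout. It had 26, 11 and 19 counts in sgNeo and 166, 16 and 215 counts in sgLkb1, or 1.04, 0.445 and 0.757 CPM against 4.06, 0.420 and 6.17 CPM. In sgLkb1 replicate 2 it was at the sgNeo level. It did not pass (log2 fold change 2.24 with SE 0.86, adjusted p = 0.12 by edgeR), and without sgLkb1 replicate 2 it did (log2 fold change 2.80, adjusted p = 0.017). With DESeq2 its adjusted p was 0.016, and over all 14 alternatives the range was 0.0078 to 0.45 in the 13 that tested it. The club cell markers did not share one order over the sgLkb1 libraries. Scgb1a1, Scgb3a2 and Bpifa1 were lowest in replicate 2 (Scgb1a1 at 157, 64.1 and 531 CPM), whereas Cyp2f2 was highest there (62.5, 146 and 67.8 CPM) and Scgb3a1 was lowest in replicate 1 (9.05, 16.5 and 62.3 CPM). The summed level of 5 club cell markers was 453 to 678 CPM in sgNeo and 231 to 681 CPM in sgLkb1, 1 of the 5 fell and 0 rose, none was at 0, and their part in the Cldn10 level was not tested.

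Cldn3, a barrier claudin, was the most abundant of the 10 per length in every library. It is a single-exon gene on chromosome 5 from 134986214 to 134987472. It was at 665, 642 and 754 CPM in sgNeo and at 420, 494 and 521 CPM in sgLkb1. On this TMM scale the lowest sgNeo value lay above the highest sgLkb1 value. On total counts the groups overlapped: sgLkb1 replicate 3 had 18146 of 29613678 counts and sgNeo replicate 1 a smaller part, 16579 of 28986526. Averages of 687 ± 59.1 and 478 ± 52.3 CPM (SD, n = 3) gave a log2 fold change of -0.52 with SE 0.17, and the gene did not pass (edgeR adjusted p = 0.072). Its sign was negative in all 14 other fits (-0.60 to -0.27), and it passed in 1, with the replicate number as a block (adjusted p = 0.048). The exon overlaps one of the antisense gene Wbscr25, which had 2 to 31 counts per library, against at least 15854 for Cldn3.

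Cldn4 lies 39.3 kb from Cldn3 on the opposite strand and encodes a close relative that, like claudin-3, binds Clostridium perfringens enterotoxin. Its level was 109, 123 and 161 CPM in sgNeo and 104, 170 and 122 CPM in sgLkb1, with the groups overlapping (log2 fold change 0.02 with SE 0.23, adjusted p = 0.97 by edgeR). Within a library, the ratio of Cldn4 to Cldn3 per length does not depend on library scaling. It was 0.113, 0.133 and 0.148 in sgNeo and 0.172, 0.239 and 0.163 in sgLkb1, so that the groups did not overlap. The ratio of Cldn18 to Cldn3 did overlap (0.277, 0.273 and 0.283 in sgNeo, 0.463, 0.227 and 0.272 in sgLkb1). Ratios have no figure over all gene pairs and are given as a description.

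Cldn7, an epithelial claudin that also lies on the basolateral membrane, was at 323, 368 and 430 CPM in sgNeo and 426, 453 and 467 CPM in sgLkb1. Only the highest sgNeo library reached the sgLkb1 range (log2 fold change 0.26 with SE 0.17, adjusted p = 0.33 by edgeR). Its ratio to Cldn3 per length went from between 0.314 and 0.371 in sgNeo to between 0.580 and 0.656 in sgLkb1.

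Cldn18, the alveolar claudin, lies on chromosome 9 from 99689461 to 99717267 on the minus strand. It was at 652, 621 and 756 CPM in sgNeo and at 688, 397 and 502 CPM in sgLkb1. In sgLkb1 replicate 1 it was as high as in sgNeo, and in the other 2 it lay below every sgNeo library. The means were 677 ± 70.8 and 529 ± 147 CPM (SD, n = 3; log2 fold change -0.35 with SE 0.23, adjusted p = 0.33 by edgeR), while Sftpc fell by 3.13 on the log2 scale (edgeR adjusted p = 0.00088). RefSeq gives 2 starts for Cldn18, and the counts are per gene, so the lung and stomach forms cannot be told apart here.

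Cldn12, which lacks the C-terminal motif that binds ZO proteins in most claudins, was at 85.5, 68.2 and 74.9 CPM in sgNeo and 115, 82.7 and 67.9 CPM in sgLkb1 (log2 fold change 0.22 with SE 0.21, adjusted p = 0.54 by edgeR). Its sgLkb1 values lay both above and below the sgNeo range.

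Cldn1, the claudin of the epidermal barrier, was low, at 0.762, 3.73 and 0.558 CPM in sgNeo and 2.30, 5.77 and 3.01 CPM in sgLkb1. It was highest in replicate 2 of each group and did not pass (log2 fold change 1.13 with SE 0.75, adjusted p = 0.35 by edgeR). Without sgNeo replicate 2 the log2 fold change was 2.47 and the adjusted p 0.061. Among basal cell markers, the regulator Trp63 was highest in the same libraries (2.19 and 2.62 CPM, and at most 1.12 CPM in the other 4). The keratins Krt5 and Krt14 were highest in sgLkb1 replicate 2 (13 and 106 CPM), but in sgNeo they were highest in replicate 3 (0.956 and 9.2 CPM), where Cldn1 was lowest, and Dapl1 had no counts in replicate 2 of either group. The summed level of 5 basal markers was 1.48 to 10.7 CPM in sgNeo and 24.2 to 121 CPM in sgLkb1, Krt14 being the 1 that rose and Ngfr having no counts in sgNeo, and their part in the Cldn1 level was not tested.

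**Figure D2:**
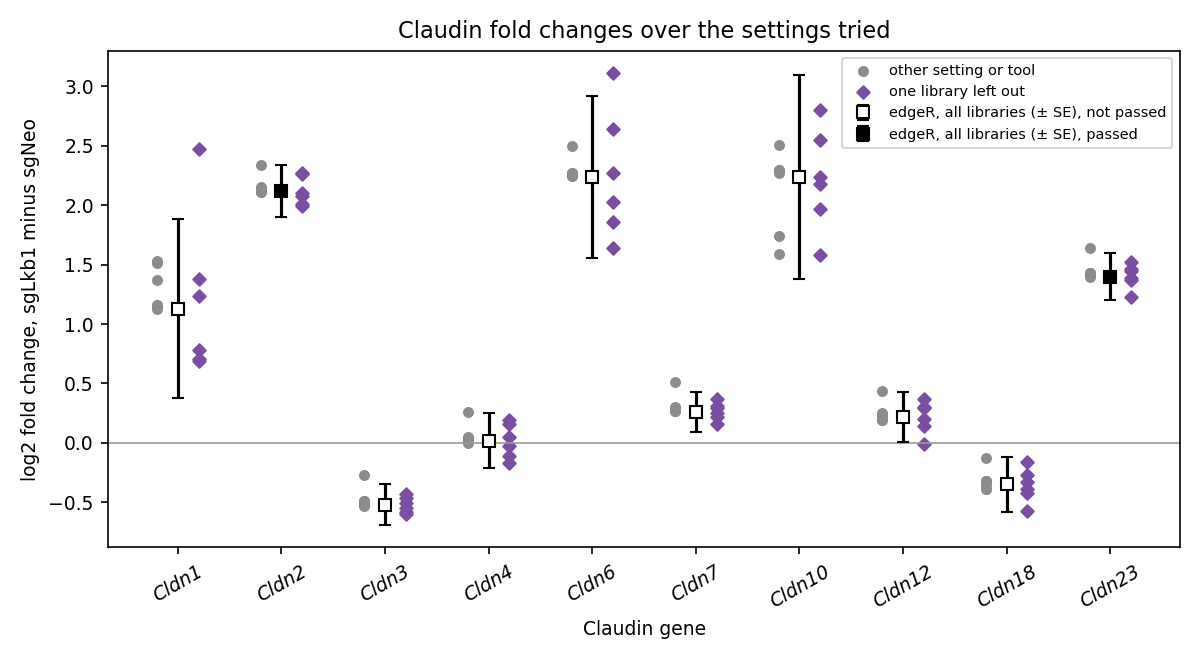
Log2 fold change of each claudin gene, sgLkb1 minus sgNeo. Squares with bars give edgeR on all libraries with its SE (filled where it passed), grey circles the other settings and tools, and diamonds the fits without 1 library. Only Cldn2 and Cldn23 have filled squares, and their points stay within 1.99 to 2.34 and 1.23 to 1.64. Cldn6 spreads from 1.64 to 3.11.

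Divided by exon length, to compare genes with one another, the order in sgNeo was Cldn3, Cldn7, Cldn18, Cldn4, Cldn2, Cldn6, Cldn12, Cldn23, Cldn1 and Cldn10. Their mean levels ran from 546 ± 47.0 CPM per kb for Cldn3 over 192 ± 27.7 for Cldn7, 152 ± 15.9 for Cldn18 and 72.1 ± 14.9 for Cldn4 down to 0.347 ± 0.366 and 0.289 ± 0.115 CPM per kb for Cldn1 and Cldn10 (SD, n = 3). Cldn7 and Cldn18 overlapped in their sgNeo ranges (166 to 221 and 139 to 170 CPM per kb). Cldn6 (7.88 to 37.2 CPM per kb) overlapped Cldn2 (20.9 to 30.5), Cldn12 (16.1 to 20.2) and Cldn23 (6.44 to 9.93). Those 3 did not overlap one another. Cldn1 and Cldn10 overlapped as well. In sgLkb1 the first 2 places were again Cldn3 (380 ± 41.6 CPM per kb) and Cldn7 (230 ± 10.8). Next came Cldn18 (119 ± 33.1), Cldn2 (110 ± 22.8), Cldn6 (92.6 ± 63.8) and Cldn4 (72.9 ± 18.8), whose ranges overlapped. Lengths are those of all annotated exons joined, which can be longer than the transcript a cell uses, so levels per length are approximate.

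The summed level of the 10 genes was similar in both groups while its make-up differed. The sum was 959, 971 and 1170 CPM per kb in sgNeo and 976, 1130 and 1040 CPM per kb in sgLkb1, with overlapping groups and means of 1030 ± 119 and 1050 ± 78.8 (SD, n = 3). Cldn3 took 51.2 to 55.1% of the sum in sgNeo and 34.2 to 39.7% in sgLkb1. Cldn2 took 2.18 to 2.61% in sgNeo and 8.09 to 13% in sgLkb1. The share of Cldn6 went from between 0.822 and 3.18% to between 3.32 and 14.1%. Cldn7 took 17.3 to 19.5% and 20.5 to 23%, and Cldn23 0.551 to 1.02% and 1.92 to 2.43%. For these 5 of the 10 genes the shares did not overlap between groups. For Cldn18 they did (14.4 to 15.3% and 7.87 to 15.8%), as for Cldn4 (6.24 to 7.58% and 5.89 to 8.28%), Cldn12, Cldn1 and Cldn10. By level in CPM, Cldn6 and Cldn7 did overlap, which left Cldn2, Cldn3 and Cldn23 without overlap. By level 36.5% of all tested genes did not overlap, and shares have no such figure over all genes. The shares of a library add to a whole, so a rise of one lowers the others, and they are given as a description. The ratio of Cldn2 to Cldn18 per length was 0.143, 0.179 and 0.180 in sgNeo and 0.819, 1.35 and 0.749 in sgLkb1.

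**Figure D3:**
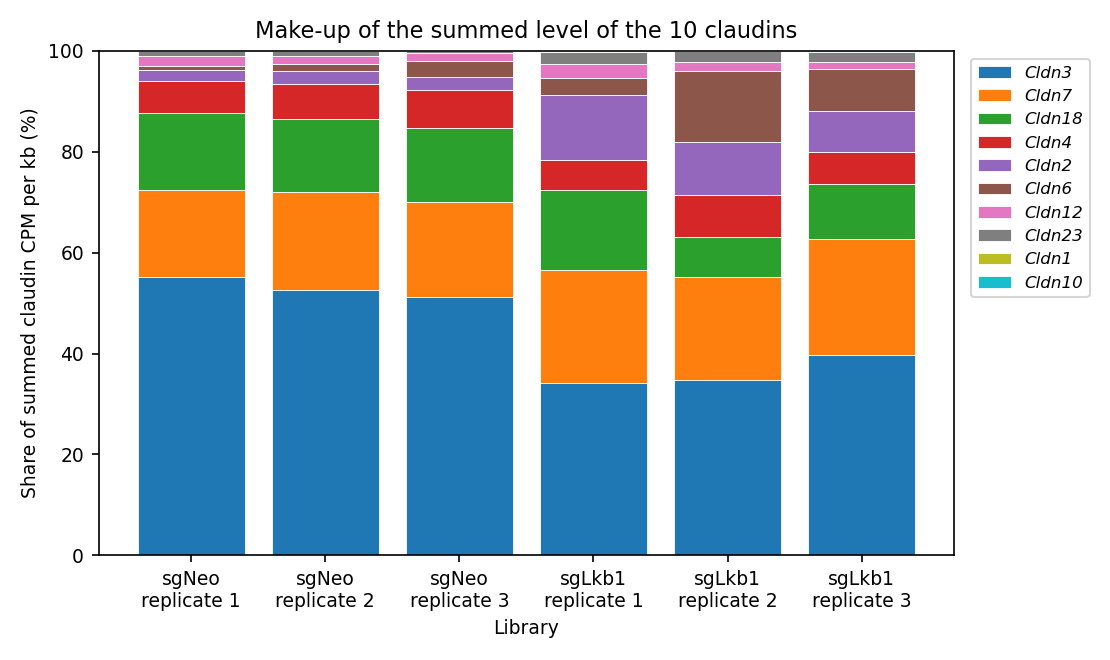
Share of each claudin gene in the summed CPM per kb of the 10 genes, as 1 stacked bar per library that adds to 100%. The Cldn3 segment is 51.2 to 55.1% in sgNeo and 34.2 to 39.7% in sgLkb1, and the Cldn2 and Cldn6 segments are wider in each sgLkb1 bar than in any sgNeo bar.

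Of the other 25 Cldn genes that the table holds, 15 had no counts in any library, 6 had counts but were too low to be tested and 4 were tested. Among those 4, Cldn9 is described above. Cldn8, a barrier claudin of the distal nephron and colon, was at 15, 16.9 and 11.2 CPM in sgNeo and 2.89, 9.21 and 1.78 CPM in sgLkb1. The groups did not overlap, but the gene did not pass (log2 fold change -1.63 with SE 0.56, adjusted p = 0.089 by edgeR). It passed without sgLkb1 replicate 2 (log2 fold change -2.59, adjusted p = 0.0057) and with DESeq2 (adjusted p = 0.0052), among 5 of 14 alternatives over which the adjusted p ran from 0.00073 to 0.23. Cldn5, the claudin of endothelial junctions, was at 4.42 to 7.38 CPM in sgNeo and 4.23 to 9.04 CPM in sgLkb1 (edgeR adjusted p = 0.87). Of 9 endothelial markers 3 rose and 1 fell beside it, with sums of 252 to 305 CPM in sgNeo and 139 to 250 CPM in sgLkb1 and none at 0. Esam, the 1 that fell, carried most of the sums in sgNeo (225, 177 and 230 CPM) but not in sgLkb1 (45.6, 36.1 and 80.7 CPM). The other 8 summed to 80.1, 75 and 46.4 CPM in sgNeo and 94.2, 103 and 169 CPM in sgLkb1, the opposite direction. Their part in the Cldn5 level was not tested. Cldn34c1, one of a family of similar genes among which reads may be split, was at 1.26 ± 0.312 and 0.832 ± 0.543 CPM (SD, n = 3), short of the threshold. Of the 6 untested genes Cldn15 had the most counts, with 0 to 3 per sgNeo library against 10 to 152 per sgLkb1 library.

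The other transmembrane proteins of the tight junction gave 3 of 14 members higher and 0 lower, with a median log2 fold change of 0.17 over the 13 tested. Over all tested genes 7.05% were higher and 8.6% lower. Jam2, a junctional adhesion molecule also found on endothelium, rose from 12.2, 14.6 and 4.82 CPM to 118, 83.0 and 70.6 CPM (log2 fold change 3.10 with SE 0.40, adjusted p = 0.0024 by edgeR). Ildr2, an angulin of the kind that marks tricellular contacts, rose from 0.602, 0.364 and 0.478 CPM to 3.33, 4.25 and 8.03 CPM (log2 fold change 3.42, SE 0.50). Both passed in all 14 other fits. Cxadr, the coxsackievirus and adenovirus receptor, rose from 165 ± 10.5 to 240 ± 19.4 CPM (SD, n = 3; adjusted p = 0.041 by edgeR), and kept its call without sgLkb1 replicate 1 but not without any other library (adjusted p up to 0.15) or with no filter (0.059). Ocln, occludin, was at 131 ± 25.2 and 131 ± 19.5 CPM and Marveld2, tricellulin, at 33.7 ± 3.16 and 33.4 ± 7.17 CPM, and neither passed. Ildr1, another angulin, was at 25.9 ± 3.11 and 14.1 ± 5.11 CPM without overlap and did not pass (edgeR adjusted p = 0.059).

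Of 22 scaffold and polarity genes 4 fell and 0 rose, against 8.6% and 7.05% of all tested genes. The median log2 fold change of the list was -0.13. Amotl2, an angiomotin that binds junctional scaffolds and YAP, fell from 61.4, 52.3 and 68.6 CPM to 26.8, 28.1 and 33.9 CPM (log2 fold change -1.04 with SE 0.17, adjusted p = 0.0061 by edgeR) and passed in all 14 other fits. Pard3, the PAR polarity scaffold, fell from 60.4 ± 4.30 to 36.8 ± 3.61 CPM (adjusted p = 0.015). Cgn, cingulin, which links ZO proteins to myosin, fell from 130 ± 5.43 to 83.1 ± 9.43 CPM (adjusted p = 0.022). Arhgef2, a RhoA exchange factor held at junctions by cingulin, fell from 180 ± 8.61 to 125 ± 13.2 CPM (adjusted p = 0.048), a call lost whichever library was left out and kept in 3 of 14 alternatives. Pard3 lost its call without sgNeo replicate 1 or 2, and Cgn without any 1 sgNeo library or sgLkb1 replicate 2, and each with total-count scaling. Fits without sgNeo replicate 1 or 2 left 1 of the 22 lower, and those without sgNeo replicate 3 or sgLkb1 replicate 2 left 2. Tjp1 was at 68.5 ± 9.84 and 85.6 ± 17.6 CPM, with an adjusted p of 0.31 by edgeR.

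**Figure D4:**
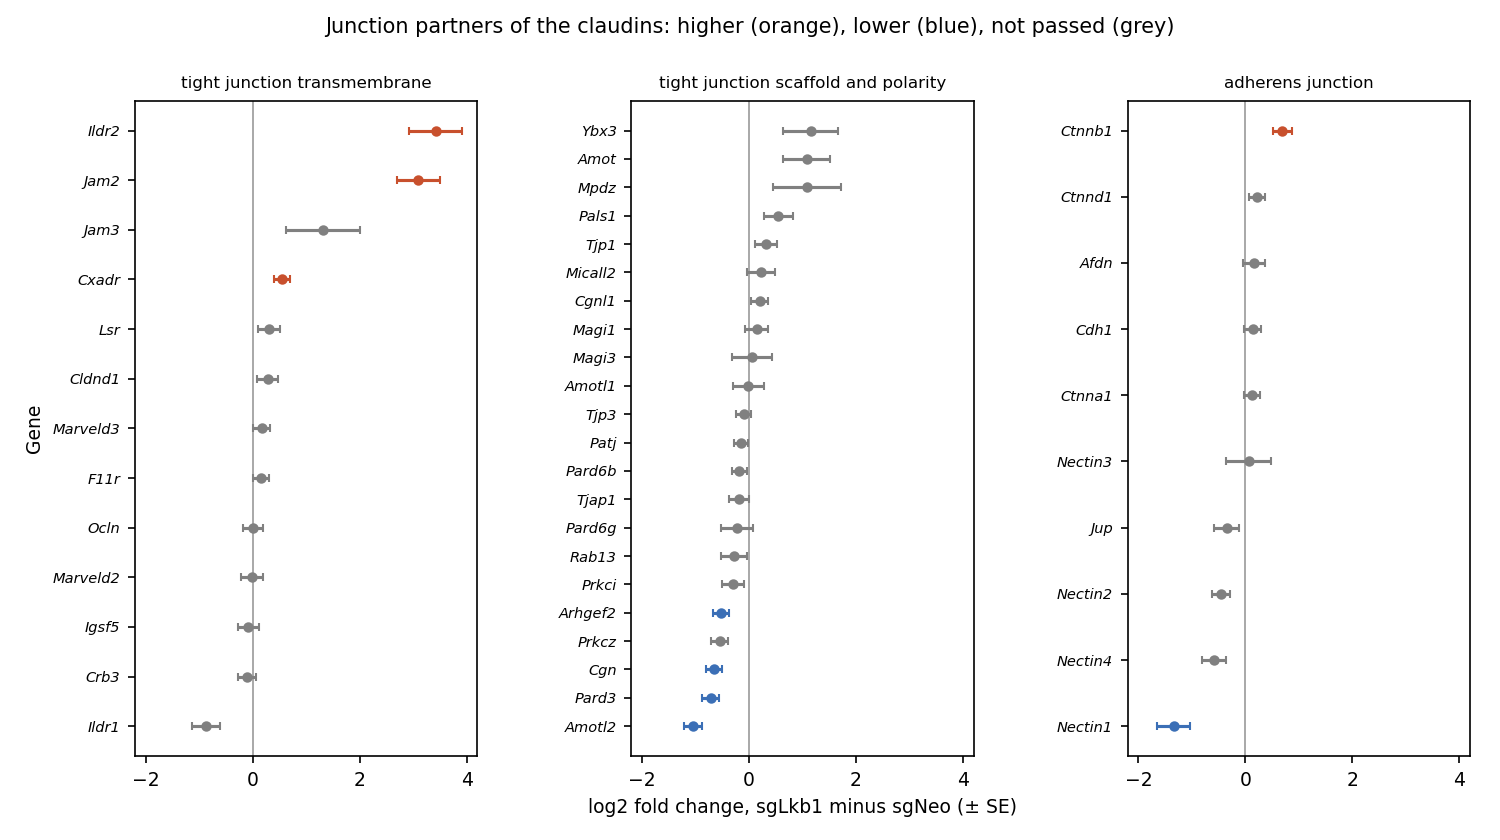
Log2 fold change with SE, sgLkb1 minus sgNeo, of the tested genes of 3 junction lists, orange where higher, blue where lower and grey where the test was not passed. Ildr2 and Jam2 lie furthest to the right, and the 4 blue scaffold genes lie between -1.04 and -0.52.

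In the adherens junction list, the cadherin-based contacts below the tight junction, 1 of 10 members rose and 1 fell (median log2 fold change 0.09). The shares over all tested genes were 7.05% higher and 8.6% lower. Ctnnb1, beta-catenin, rose from 928 ± 27.7 to 1490 ± 233 CPM (adjusted p = 0.038 by edgeR) and Nectin1 fell from 8.69 ± 1.78 to 3.43 ± 0.763 CPM (adjusted p = 0.024). Leaving out sgNeo replicate 1, sgNeo replicate 3 or sgLkb1 replicate 2 ended both calls, that of Ctnnb1 also without sgNeo replicate 2. Cdh1, E-cadherin, was at 949 ± 59.4 and 1050 ± 63.8 CPM and Ctnna1 at 458 ± 30.3 and 498 ± 25.0 CPM, and neither passed. Nectin2 and Nectin4 were at 343 ± 40.2 and 57.2 ± 3.40 CPM in sgNeo and 252 ± 30.8 and 38.1 ± 11.6 CPM in sgLkb1, and did not pass.

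Among 12 transcription factors reported to act on claudin genes 3 rose and 2 fell (median log2 fold change 0.24 over 10 tested). Over all tested genes 7.05% rose and 8.6% fell. Elf3, an epithelial ETS factor, rose from 168, 177 and 172 CPM to 294, 298 and 297 CPM (log2 fold change 0.78 with SE 0.14, adjusted p = 0.0081 by edgeR). Hnf4a, a regulator of gut and liver epithelium, rose from 40.7 ± 10.3 to 83.9 ± 15.3 CPM (adjusted p = 0.019). Snai1, a repressor of claudin and cadherin genes, rose from 0.361 ± 0.0789 to 1.86 ± 0.881 CPM (adjusted p = 0.033) and passed in 6 of the 13 alternatives that tested it. Cebpa, a factor of the distal lung epithelium, fell from 92.5 ± 6.77 to 27.7 ± 7.22 CPM (adjusted p = 0.0020), and Nkx2-1, the lung lineage factor reported to drive the lung form of Cldn18, from 274 ± 18.9 to 129 ± 42.1 CPM (adjusted p = 0.021). Without sgNeo replicate 1 or 2 none of the 3 higher genes passed, without sgLkb1 replicate 2 only 1 of the list was higher, and Nkx2-1 lost its call without any 1 sgNeo library or without sgLkb1 replicate 3. Snai2 was at 1.11 ± 0.479 and 1.33 ± 1.09 CPM, short of the threshold. Of 8 fibroblast markers 4 rose beside Snai1, with sums of 52.4 to 128 CPM in sgNeo and 196 to 1430 CPM in sgLkb1 and the highest in replicate 3, where Snai1 was also highest (0.881, 2.13 and 2.58 CPM), and their part in its level was not tested.

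Summed levels of the remaining marker lists were 3730 to 4390 CPM in sgNeo and 2080 to 2950 CPM in sgLkb1 for alveolar type 1 cells (1 of 9 rose, 3 fell), 50.1 to 54.7 and 41.9 to 74.3 CPM for ciliated cells (0 of 5 passed), and 173 to 429 and 829 to 1420 CPM for mesothelium (2 of 6 rose). Beside the counts given for each marker list, 7.05% of all tested genes rose and 8.6% fell. Ager carried much of the alveolar type 1 sum in sgNeo. The other 8 genes added to 1970 to 2260 CPM in sgNeo and 1650 to 2210 CPM in sgLkb1. Msln carried most of the last, the other 5 adding to 2.99 to 5.33 CPM in sgNeo and 16.2, 145 and 121 CPM in sgLkb1. Wt1, Upk3b, Lrrn4 and Gpm6a were highest in sgLkb1 replicate 3 (Upk3b at 0.416, 1.73 and 16.5 CPM). Msln and Aldh1a2, the 2 that rose, were highest in sgLkb1 replicate 2 (813, 1280 and 1010 CPM, and 13.5, 138 and 57 CPM). Alveolar type 1 cells also express Cldn18, and the part of these cells in its level was not tested.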

How the data were processed

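Expression was measured by bulk RNA sequencing in 3 sgNeo and 3 sgLkb1 libraries, grouped by their titles. The authors deposited expected counts per gene. Per the submitters' processing notes the tools were FastQC, STAR, RSEM and DESeq2 with build GRCm38, without versions, and the strand setting and annotation release were not stated there. Reads shared by similar genes are divided between them by RSEM. Counts were rounded to whole numbers (11.3% were not whole), filtered with filterByExpr (15978 genes left), scaled with TMM and compared with the quasi-likelihood test of edgeR 4.0.16 (R 4.3.3), two-sided, genotype as the only term, Benjamini-Hochberg over all genes tested, threshold 0.05. Adjusted p-values come from this test where no tool is named. Positive log2 fold changes mean higher in sgLkb1, with SE as the size over the square root of F.

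Lengths and positions are from GENCODE M21 (GRCm38), which matched 55227 genes by ID without version. Named were all 10 claudins, tested other claudins, Stk11, and from each list the first 2 genes, the 4 with the lowest p and any that passed. One gene of the scaffold list is not reported here. Members and lists were chosen with earlier results of these data known. Alternatives were RLE, upper-quartile and total-count scaling (the last added after seeing the data), no filter, a stricter filter (3 libraries with CPM 1 or more), limma-voom (limma 3.58.1), DESeq2 1.42.0, a replicate block, and leaving out every library singly. On simulated data (15978 genes) the test recovered 6% of genes changed 1.5-fold, 22% changed 2-fold and 94% changed 4-fold. The changed genes were drawn above a minimum mean level that Cldn1, Cldn9 and Cldn10 did not reach. Replicates differed by more than sampling noise (chi-square per degree of freedom at least 38.7).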

Additional observations from a re-analysis of the deposited data

How the results depend on the processing

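Cldn2 and Cldn23 passed under every alternative. Of 10 claudins 4 passed with no filter on low counts (Cldn6 and Cldn10 besides) and 4 with the replicate number as a block (Cldn3 and Cldn6 besides), and 2 to 3 with a library left out. The numbers share no stated source, so the block is kept as an alternative only. Deviations of same-numbered libraries correlated at 0.23, -0.02 and 0.22, and those of differently numbered libraries at -0.27 to 0.12. Whether the numbers mark a pairing cannot be told from these values. With the block 2880 genes passed.

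Over all genes, fits without 1 library called 1129 to 2780 (447 to 1368 higher, 682 to 1412 lower), down to 1325, 1129 and 1587 when sgNeo replicate 1, 2 or 3 was left out and 1529 when sgLkb1 replicate 2 was. Higher genes numbered 2191 with total-count scaling (lower 896), 1917 with no filter and 1786 with DESeq2. Of the transmembrane list 1 was lower with upper-quartile scaling, no filter, DESeq2, limma-voom or the block (0 to 1 with a library left out, and 2 to 3 higher). Of the scaffold list 1 was higher with total-count scaling (then 1 lower), no filter, DESeq2 or the block (0 to 1 higher and 1 to 3 lower with a library left out). No adherens gene (0) was lower with total-count scaling, and 0 to 1 were higher and 0 to 1 lower with a library left out. Transcription factors gave 0 to 4 higher and 1 to 2 lower. The cause was not tested.

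Reversed signs were limited to genes that did not pass. Cldn4 was at -0.11 without sgNeo replicate 1, at -0.03 without sgNeo replicate 2 and at -0.17 without sgLkb1 replicate 2 (left-out range -0.17 to 0.19). Cldn12 was at -0.01 without sgLkb1 replicate 1 (range -0.01 to 0.37). Cldn5 was at -0.05 without sgNeo replicate 3 and at -0.27 without sgLkb1 replicate 3 (range -0.27 to 0.35). Ocln was at -0.10 and -0.06 with sgNeo replicate 1 or 3 left out and at -0.11 with sgLkb1 replicate 1 left out (range -0.11 to 0.17). Marveld2 was at 0.02 with RLE or DESeq2, 0.01 with upper-quartile scaling, 0.25 with total-count scaling, 0.03 with no filter, 0.06 without sgNeo replicate 2 and 0.17 without sgLkb1 replicate 1 (range -0.13 to 0.17). Snai2 was at -0.05 with limma-voom, -0.04 without sgNeo replicate 1 and -0.60 without sgLkb1 replicate 3 (range -0.60 to 0.73). Depth limits Cldn1, Cldn9, Cldn10, Cldn34c1, Ildr2, Snai1 and Snai2, each with under 30 counts in some libraries.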
